A study of Bos taurus with 33 samples.

Results

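Endometrium of pregnant heifers was compared with endometrium of cyclic heifers on day 12, the earliest of the slaughter days sampled. The comparison holds 10 of the 33 arrays of the series, chosen by their titles: 5 arrays of pregnant animals and 5 of non-pregnant controls, with 1 array per animal. All were Bavarian Simmental heifers whose cycles had been synchronised with 1 injection of cloprostenol, a prostaglandin analogue. Pregnant animals had been inseminated on day 1 with frozen sperm from a single bull, and cyclic animals had been sham-inseminated with the sperm-free supernatant of centrifuged semen. At slaughter the day 12 uteri were flushed with PBS to look for a blastocyst, and intercaruncular endometrium was taken from the distal part of the horn on the side of the corpus luteum. Pregnant and cyclic animals slaughtered on day 15 (3 and 3) and day 18 (4 and 4) were used only for the spread between animals and to set the day 12 differences beside later ones. Tissue came from other parts of the horn on those days, so day and uterine part cannot be told apart. The labels give neither the age of the heifers nor the size of the day 12 embryos.

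In cattle the hatched blastocyst lies free in the uterine lumen and lives on uterine secretions, called histotroph, before it elongates into a filament. Its trophectoderm secretes interferon tau, a type I interferon, which binds the receptor IFNAR1 and IFNAR2 on endometrial cells and acts through JAK kinases and IRF9 on interferon-stimulated genes. Interferon tau is the signal by which ruminants recognise pregnancy: it keeps the endometrium from releasing the prostaglandin pulses that would end the corpus luteum.

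Expression was read as log2 values per probe set, a group of oligonucleotides that together measure a transcript, and differences are pregnant minus cyclic on that scale with the standard error from limma. Day 12 pregnancy was accompanied by little that could be told from the spread between animals. A single probe set of 24016, for LPL, passed the threshold of an adjusted p of 0.05 (0.00416%), and it was lower in pregnant animals, whereas 661 (2.75%) passed as higher and 557 (2.32%) as lower on day 15, and 2123 (8.84%) and 2439 (10.2%) on day 18. At an unadjusted p under 0.05, 1597 probe sets (6.65%) differed on day 12, 848 (3.53%) of them higher and 749 (3.12%) lower, and the groups did not overlap for 90 higher (0.375%) and 139 lower (0.579%). The median difference over all probe sets was 0.006, with 52.5% of them above 0 and a median standard error of 0.0906. On the first principal component of the day 12 arrays (20.7% of the variance) pregnant animals 1 to 5 scored -10.9, -16.2, -8.17, -7.83 and 10.6, against -9.03, -1.97, -6.69, 29.4 and 20.8 in cyclic animals 1 to 5, so that cyclic animals 4 and 5 stood apart. With both of those cyclic animals left out, a setting chosen after the data were seen, 7 probe sets passed, all lower in pregnant animals, with LPL and FAM162A among them. Counted by gene, LPL was 1 of 9155 (0.0109%), and 621 genes (6.78%) were past an unadjusted p of 0.05, 262 (2.86%) higher and 359 (3.92%) lower. By gene the groups did not overlap for 32 higher (0.35%) and 71 lower genes (0.776%).

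LPL encodes lipoprotein lipase, which works on the surface of capillary endothelium and splits triglycerides carried in lipoproteins so that tissues can take up the fatty acids. Its log2 level was 6.35, 6.06, 6.32, 6.46 and 6.00 in pregnant animals 1 to 5, against 7.65, 8.68, 7.90, 8.03 and 7.05 in cyclic animals 1 to 5. The pregnant animals lay close together and all below the lowest cyclic animal. The means were 6.24 (SD 0.198) in pregnant and 7.86 (SD 0.592) in cyclic animals (n = 5 each). LPL thus fell by 1.62 ± 0.241 log2 with pregnancy, a 3.08-fold difference (adjusted p = 0.0241, limma). An exact two-sided permutation test over all splits of the 10 animals into 5 and 5 gave p = 0.00794, the smallest it can give, which became 0.159 after adjustment over the 20 genes so tested. In whole tissue, fewer cells that express a gene and less RNA per cell cannot be told apart. The call did not hold in a fit to the 10 day 12 arrays alone (adjusted p = 0.208, limma) or when cyclic animal 3 or pregnant animal 1, 2, 4 or 5 was left out (adjusted p = 0.0543 to 0.133, limma). Without both cyclic animals 4 and 5 the difference was -1.84 (adjusted p = 0.00586, limma).

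The day 12 difference in LPL was not seen on the later days. LPL was 4.51 (SD 0.413) in pregnant and 4.85 (SD 0.459) in cyclic animals on day 15 (n = 3 each; -0.34 ± 0.311, adjusted p = 0.642, limma). On day 18 it was 5.51 (SD 0.383) in pregnant and 5.46 (SD 0.310) in cyclic animals (n = 4 each; 0.05 ± 0.269, adjusted p = 0.934, limma). The effect of pregnancy on day 18 minus that on day 12 was 1.67 ± 0.361 (adjusted p = 0.00441, limma), and on day 15 minus day 12 it was 1.28 ± 0.393 (adjusted p = 0.0999, limma). Without cyclic animal 5 the day 15 term was 1.49 (adjusted p = 0.0339, limma). Levels cannot be set against each other across days, because the values of each day appear to have been normalised apart. The biopsies of the interferon experiment, also on a scale of their own, also came from animals without a conceptus, and there LPL ran from 6.34 to 8.33 with interferon alpha, from 6.76 to 9.78 with placebo and from 6.21 to 6.58 with PBS (3 animals each).

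**Figure D1:**
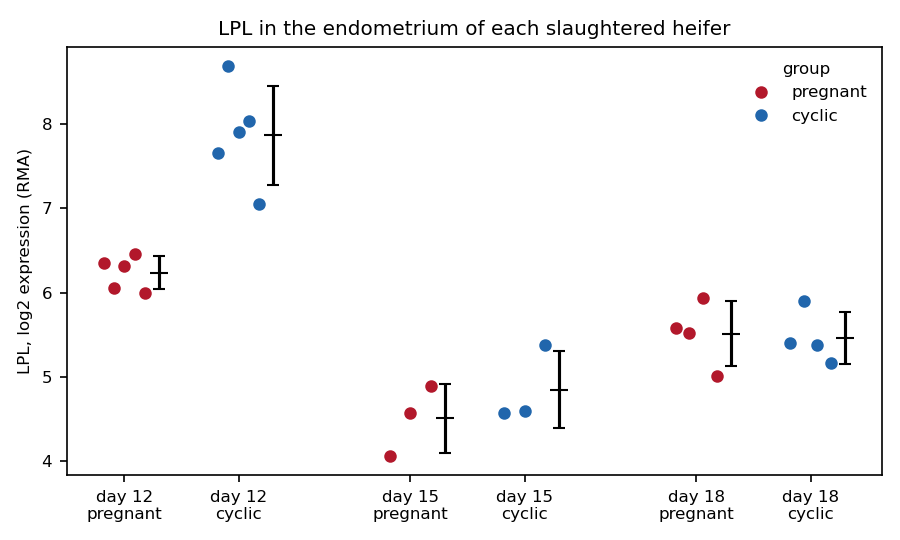
LPL log2 expression per animal (vertical axis) in pregnant and cyclic heifers on days 12, 15 and 18, with points for animals and bars for group means and SD. On day 12 the 5 pregnant animals lie between 6.00 and 6.46 and the 5 cyclic animals between 7.05 and 8.68, whereas the groups overlap on days 15 and 18. Levels are comparable within a day only.

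LPL is also expressed by adipocytes, and 8 of 9 listed adipocyte markers were measured. ADIPOQ (adiponectin) averaged 3.97 in pregnant and 3.83 in cyclic animals, and FABP4, a fatty acid carrier of adipocytes and capillaries, averaged 3.28 in pregnant and 3.24 in cyclic animals. The highest members were LIPE, a lipase of fat stores, at 7.37 in both groups, and CIDEA, a lipid droplet protein, at 6.26 in pregnant and 6.63 in cyclic animals. CIDEA differed by -0.37 ± 0.141 and was the only adipocyte marker past an unadjusted p of 0.05 by limma. Over the list 3 were above 0, the median difference was 0.00, and the mean level was 4.66 to 4.78 in pregnant and 4.66 to 4.83 in cyclic animals; its part in the LPL difference was not tested. Over the 13 endothelial markers, 6 were above 0 and the median was -0.02, with mean levels of 7.82 to 8.26 in pregnant and 7.85 to 8.30 in cyclic animals. Within groups, the genes whose values over the 10 animals tracked LPL most closely were TF, RSPO3, DPT, CKM and RNF34, with Pearson correlations of residuals from 0.868 to 0.885, given as a description over 10 arrays. Their own differences with pregnancy ranged from -0.25 (RSPO3) to 0.30 (DPT).

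Of 50 listed genes of lipid uptake and handling, LPL among them, 40 were measured, and LPL alone passed. The list's median was -0.03, against -0.002 over all genes, and 17 of 40 members (42.5%) were above 0, against 48.6% of all genes. At an unadjusted p under 0.05, 3 of the 40 were lower, among them LPL, against 3.92% of all genes, and 0 higher, against 2.86%. SCD, which desaturates fatty acids, differed by -0.39 ± 0.142 (unadjusted p = 0.0130, limma), and ACSL3, which activates them with coenzyme A, by -0.21 ± 0.0903 (unadjusted p = 0.0298, limma). VLDLR, a receptor for triglyceride-rich lipoproteins, differed by 0.37, PPARG, a nuclear receptor for fatty acids, by 0.33 and the fatty acid transporter CD36 by 0.16, and none of these passed.

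The genes next to LPL by p-value also missed the threshold. FUT1, a fucosyltransferase that builds the H antigen on cell surface glycans, measured 5.89, 5.54, 6.15, 5.55 and 5.85 in pregnant animals, against 6.38, 6.05, 6.49, 6.82 and 6.55 in cyclic animals. The ranges overlapped, with pregnant animal 3 above cyclic animal 2. The difference was -0.66 ± 0.116 (adjusted p = 0.0879, limma), and a second FUT1 probe set gave -0.49 ± 0.126 (adjusted p = 0.409, limma).

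Among the genes whose groups did not overlap, the 12 with the smallest p in each direction were examined one by one. Apart from LPL the lower ones were FAM162A, ABHD14B, MSRA, ANKIB1, RGS5, ILVBL, GJB5, TCAF2, TRPM3, FAHD1 and KCNQ1, with differences from -0.91 (TRPM3) to -0.22 (MSRA). FAM162A, a mitochondrial protein induced by hypoxia, was 8.99, 8.77, 9.15, 8.76 and 8.83 in pregnant animals, against 9.60, 10.14, 9.51, 9.41 and 9.30 in cyclic animals. The difference was -0.69 ± 0.129 (adjusted p = 0.112, limma), and -0.85 without cyclic animals 4 and 5 (adjusted p = 0.0231, limma). TRPM3, a calcium-permeable cation channel, was 6.47, 6.25, 6.50, 6.24 and 6.58 in pregnant animals, against 7.73, 8.12, 7.02, 6.70 and 7.01 in cyclic animals. Cyclic animals 1 and 2 carried the highest values, and cyclic animal 4 stood just above the highest pregnant animal. The difference was -0.91 ± 0.214 (adjusted p = 0.330, limma).

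Other lower genes of the same choice were read in the same way. RGS5, a regulator of G protein signalling that marks pericytes, was 9.72, 9.64, 9.54, 9.66 and 9.48 in pregnant animals, against 10.31, 10.29, 10.34, 10.00 and 10.10 in cyclic animals. The difference was -0.60 ± 0.137 (adjusted p = 0.330, limma). KCNQ1, a potassium channel subunit, differed by -0.48 ± 0.119 and the connexin gene GJB5 by -0.64 ± 0.148. A second KCNQ1 probe set differed by 0.12. IHH, which is not among the 12 and was named from the growth factor list, encodes the Indian hedgehog ligand that carries progesterone signals from epithelium to stroma in the mouse uterus. It was 8.10, 7.42, 8.13, 7.84 and 8.04 in pregnant animals, against 8.46, 8.63, 8.23, 8.54 and 8.57 in cyclic animals. Its groups did not overlap either, and the difference was -0.58 ± 0.145 (adjusted p = 0.378, limma).

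The 12 higher genes were HTRA4, ZRANB1, NDRG2, MKLN1, CNEP1R1, BCL2L14, ZNF771, ARHGAP10, TLE3, IMPDH2, TIMELESS and ST14, with differences from 0.17 (IMPDH2 and ZNF771) to 0.75 (NDRG2). NDRG2, a stress-responsive member of the NDRG family, was 9.98, 10.05, 10.30, 9.87 and 10.07 in pregnant animals, against 9.59, 9.52, 9.56, 8.90 and 8.93 in cyclic animals. Cyclic animals 4 and 5 were the lowest. The difference was 0.75 ± 0.188 (adjusted p = 0.378, limma), and 0.50 without those animals. BCL2L14, of the BCL2 family of apoptosis regulators, was 6.34, 5.62, 6.01, 5.42 and 5.44 in pregnant animals, against 5.22, 4.99, 4.93, 5.25 and 5.20 in cyclic animals. Pregnant animals 1 and 3 stood highest, and the difference was 0.65 ± 0.178 (adjusted p = 0.444, limma), whereas a second BCL2L14 probe set differed by 0.03. ST14, the membrane serine protease matriptase, differed by 0.28 ± 0.0950, and MKLN1, a subunit of a ubiquitin ligase complex, by 0.26 ± 0.0691.

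**Figure D2:**
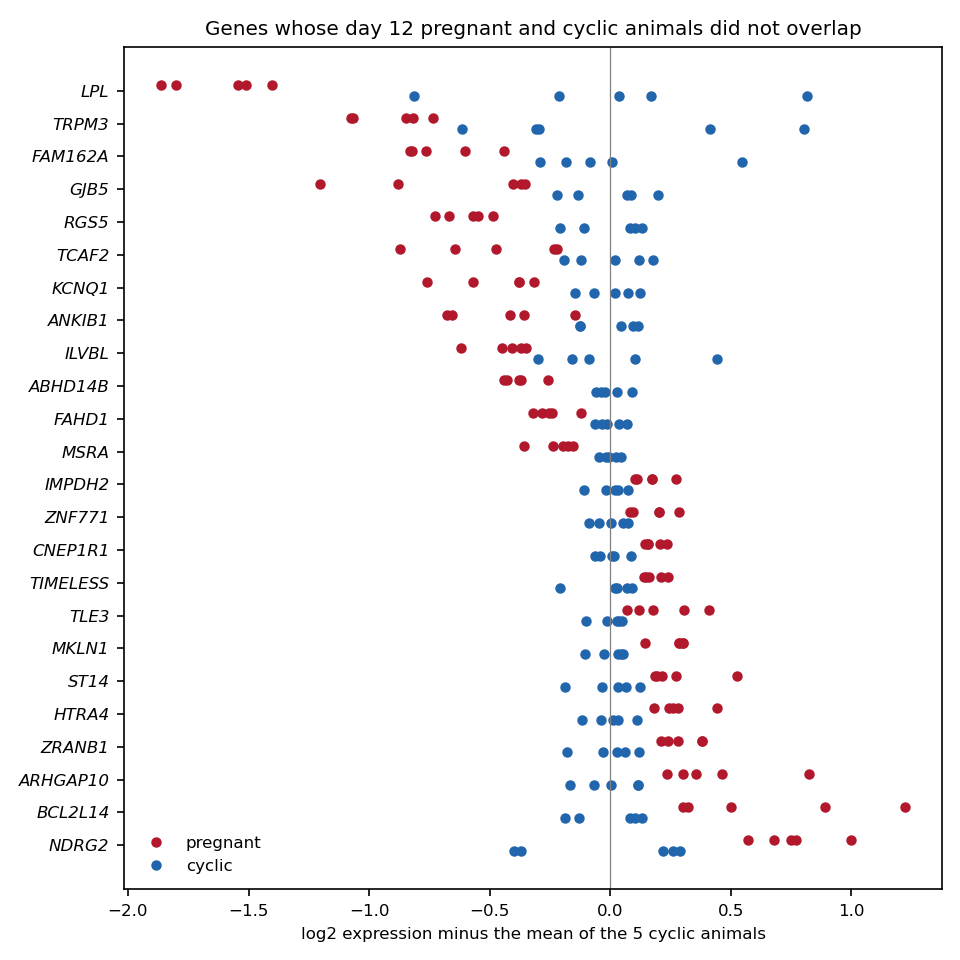
Log2 expression minus the mean of the 5 cyclic animals (horizontal axis) in each of the 5 pregnant and 5 cyclic day 12 animals (points) for the 12 lower and 12 higher genes with the smallest p among those whose groups did not overlap. In this choice only LPL passed the adjusted threshold, and it shows the widest gap; the others are separated by less, with differences of -0.91 to 0.75 in log2.

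The same genes were read in other animals on the later days, with adjusted p-values from limma over all probe sets. Of all genes, 370 (4.04%) were higher and 214 (2.34%) lower on day 15, and 1150 (12.6%) higher and 953 (10.4%) lower on day 18. Of the 12 lower genes, 0 were lower past the threshold on day 15 and 3 on day 18: ABHD14B (-0.31 ± 0.0831, adjusted p = 0.0105), RGS5 (-0.49 ± 0.153, adjusted p = 0.0272) and KCNQ1 (-0.49 ± 0.133, adjusted p = 0.0131). TCAF2, which regulates a cation channel, was higher on day 18 instead, by 0.39 ± 0.128, and its effect on day 18 minus day 12 was 0.88 ± 0.171 (adjusted p = 0.00194). Of the 12 higher genes, MKLN1 was higher on day 15 (0.48 ± 0.0892, adjusted p = 0.00193) and on day 18 (0.66 ± 0.0773, adjusted p = 2.47e-06). BCL2L14 rose by 0.98 on day 15 (SE 0.230, adjusted p = 0.0143) and by 0.98 on day 18 (SE 0.199, adjusted p = 0.00130), and HTRA4 and TIMELESS rose on day 18, by 0.24 and 0.23. The interaction term, the later effect minus that on day 12, passed as positive for 179 genes (1.96%) and as negative for 53 (0.579%) on day 15, and for 758 (8.28%) and 412 (4.5%) on day 18; a positive term can also come from a fall on day 12 that was not there later, as for LPL. IHH fell by 0.76 on day 15 (SE 0.187, adjusted p = 0.0194) and by 0.47 on day 18 (SE 0.162, adjusted p = 0.0468), and its day 12 effect did not differ past the threshold from either (adjusted p = 0.829 and 0.813). ST14 and ZRANB1, above 0 on day 12, were -0.30 and -0.15 on day 18, and the change in the effect passed for both (-0.58 ± 0.143, adjusted p = 0.0116, and -0.45 ± 0.108, adjusted p = 0.0102).

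The interferon system was read from its receptors inwards. IFNAR1 was 5.93, 6.41, 6.19, 6.13 and 6.38 in pregnant animals, against 6.13, 5.84, 6.27, 6.20 and 6.20 in cyclic animals. IFNAR2 was 7.91, 7.79, 7.84, 7.87 and 7.93 in pregnant animals, against 7.68, 7.66, 8.01, 7.64 and 7.65 in cyclic animals. Receptor transcripts were thus present in all 10 animals at overlapping levels, with differences of 0.08 ± 0.110 for IFNAR1 and 0.14 ± 0.0772 for IFNAR2. The kinase JAK1 differed by 0.01 ± 0.0526. IRF9, the DNA-binding part of the factor that type I interferon activates and itself an interferon-stimulated gene, was 9.14, 8.67, 8.73, 8.87 and 8.78 in pregnant animals, against 8.67, 8.63, 8.85, 8.37 and 8.32 in cyclic animals. Cyclic animal 3 exceeded 3 pregnant animals and cyclic animal 1 equalled the lowest of them. The difference was 0.27 ± 0.128 (unadjusted p = 0.0463, adjusted p = 0.747, limma). Of the 15 receptor and signalling genes measured of 22 listed, 0 passed, and 1 was higher at an unadjusted p under 0.05, against 2.86% of all genes. In this list 10 were above 0, against 48.6% of all genes, and the median was 0.04. By the mean over each gene's probe sets that median was 0.01, a shift larger than the spread between the pregnant animals.

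Of 68 listed interferon-stimulated effector genes 45 were measured, and 0 passed the threshold on day 12 by limma. At an unadjusted p under 0.05, 5 of the 45 were higher, against 2.86% of all genes, and 0 were lower, against 3.92%: IFI6, IFI16, MX1, IFI27 and ZNFX1. In 0 of the 45 did the groups fail to overlap, a count near the shares of all genes, 0.35% higher and 0.776% lower. The list's median was 0.06 and 29 members (64.4%) were above 0, against 48.6% of all genes, with a range from -0.42 for GBP4 to 0.62 for IFI6. Members of the list were measured in the same animals and are not independent of each other. Without cyclic animals 4 and 5 the median was 0.03, 25 of 45 (55.6%) were above 0, against 52.9% of all genes, and 1 was higher and 1 lower at an unadjusted p under 0.05.

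IFI6, a mitochondrial and endoplasmic reticulum protein induced by type I interferon, was 11.34, 10.76, 11.24, 11.0 and 11.10 in pregnant animals, against 10.93, 10.39, 10.82, 10.25 and 9.95 in cyclic animals. The pregnant animals were higher apart from animal 2, which lay below cyclic animals 1 and 3. The difference was 0.62 ± 0.164 (unadjusted p = 0.00105, adjusted p = 0.409, limma). The exact two-sided permutation test gave p = 0.0238, which became 0.206 after adjustment over the 20 genes so tested. Cyclic animals 4 and 5 were the lowest, and without them the difference was 0.37 ± 0.160 (unadjusted p = 0.0304, limma).

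MX1, a dynamin-like GTPase that blocks viral replication, was 10.49, 9.84, 10.0, 10.02 and 10.27 in pregnant animals, against 9.87, 9.42, 10.15, 8.96 and 9.35 in cyclic animals. Its relative MX2 was 6.15, 4.61, 5.12, 5.80 and 5.44 in pregnant animals, against 5.31, 5.06, 4.82, 4.67 and 5.17 in cyclic animals. Both overlapped: for MX1 cyclic animal 3 exceeded 3 pregnant animals, and for MX2 pregnant animal 2 was the lowest of all 10. The differences were 0.57 ± 0.241 for MX1 (unadjusted p = 0.0267, adjusted p = 0.702, limma) and 0.42 ± 0.242 for MX2 (adjusted p = 0.823, limma).

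ISG15, a ubiquitin-like protein that is conjugated to other proteins, was 9.50, 8.28, 8.81, 8.90 and 8.92 in pregnant animals, against 8.83, 8.24, 8.78, 8.0 and 7.89 in cyclic animals. RSAD2, the antiviral enzyme viperin, was 8.48, 7.67, 7.89, 8.04 and 7.95 in pregnant animals, against 7.95, 7.18, 8.01, 7.36 and 6.91 in cyclic animals. IFI27 was 11.25, 10.47, 10.86, 11.15 and 10.86 in pregnant animals, against 10.81, 10.13, 10.87, 9.91 and 10.06 in cyclic animals. In all of these pregnant animal 1 was the highest of the 10 and pregnant animal 2 the lowest of its group, and cyclic animals 1 and 3 stood above cyclic animals 2, 4 and 5. The differences were 0.53 ± 0.292 for ISG15, 0.52 ± 0.254 for RSAD2 and 0.56 ± 0.250 for IFI27 (adjusted p = 0.805, 0.762 and 0.722, limma). Without cyclic animals 4 and 5 they were 0.27 for ISG15, 0.29 for RSAD2, 0.31 for IFI27 and also 0.31 for MX1.

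Other members of the same list were closer to 0 or below it. USP18, which removes ISG15 from its targets, differed by 0.20 ± 0.139, with pregnant animal 1 at 7.83 and the other pregnant animals at 7.24 to 7.37. IFI44 differed by 0.10 ± 0.263, IFI44L by 0.02 ± 0.194, IFIT2 by -0.03 ± 0.149 and IRF7, a transcription factor that amplifies the interferon response, by 0.04 ± 0.119. OAS1X, which makes the oligoadenylates that activate RNase L, differed by 0.05 ± 0.590, with cyclic animals from 4.24 to 7.20. CXCL10, a T cell chemokine, differed by -0.24 and XAF1 by -0.24. The members with a cyclic level above the list's median had a median difference of 0.13 (22 genes, 16 above 0, 5 higher at an unadjusted p under 0.05), and the 23 at or below it had a median of 0.02 (13 above 0, 0 higher at that p). Of all genes 48.6% were above 0 and 2.86% higher at that p. The 5 are IFI6, IFI16, MX1, IFI27 and ZNFX1. The split used the same cyclic values that enter the difference, so no dependence on level is read from it.

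**Figure D3:**
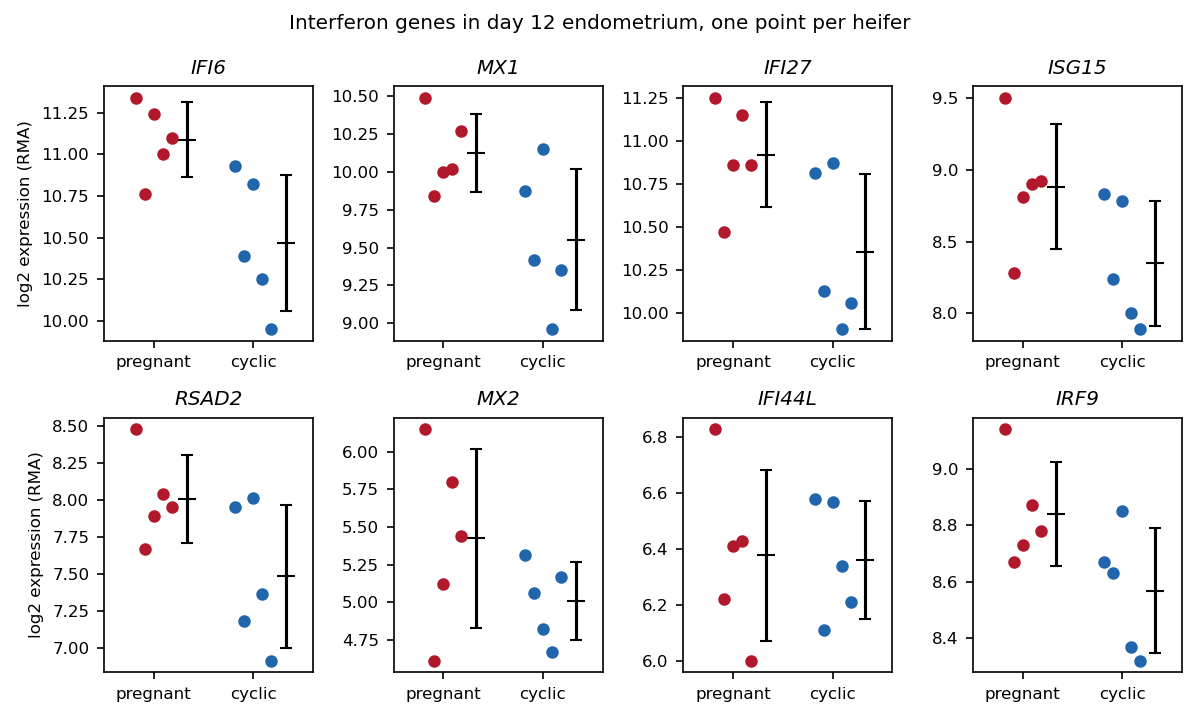
Log2 expression of interferon genes on day 12 (vertical axes, each on its own range), with a point per animal for pregnant and cyclic groups and bars for group means and SD. Pregnant and cyclic values overlap for each gene shown, and pregnant animal 1 is the highest of the 10 in each.

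Averaged over the 45 effectors, each animal's level minus the cyclic mean was 0.26, -0.08, 0.09, 0.06 and 0.08 in pregnant animals 1 to 5, against 0.10, -0.06, 0.15, -0.07 and -0.11 in cyclic animals 1 to 5. Pregnant animal 1 was highest, pregnant animal 2 lay among the lower cyclic animals, and cyclic animal 3 was second of the 10. Markers of macrophages and dendritic cells, which respond to interferon and express several of these genes, were also highest in cyclic animal 3, at 0.43 above the cyclic mean, against 0.03, -0.25, -0.22, -0.16 and -0.19 in pregnant animals 1 to 5. The other cyclic animals were at 0.07, -0.15, -0.19 and -0.16 on that scale. The part of these cells in the interferon values was not tested.

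Of the 45 effectors, 39 rose past the threshold on day 15, in other animals, against 4.04% of all genes. The other 6 did not pass, with day 15 effects from -0.22 (HERC5) to 1.94 (OAS1X). Of the 15 interferon genes of a fixed set, 14 were above 0 on day 12, against 48.6% of all genes. Some of the 14 were close to 0, such as IFI44L (0.02), IRF7 (0.04) and OAS1X (0.05). The signs of IFI44, IFI44L and OAS1X turned when some single animals were left out. The effect of pregnancy was larger past the threshold in 11 of the 15 on day 15 and in 13 on day 18 than on day 12 (limma interaction terms). On day 15 minus day 12 the effect was larger by 4.90 ± 0.395 for MX2 (adjusted p = 3.6e-08), 4.71 ± 0.478 for ISG15 (adjusted p = 1.04e-06) and 1.84 ± 0.267 for IFI6 (adjusted p = 0.000215). Pregnancy effects on day 15 were 5.32 ± 0.312 for MX2, 5.24 ± 0.378 for ISG15 and 2.46 ± 0.211 for IFI6, against day 12 effects of 0.42, 0.53 and 0.62. IFI44L and IFI44 rose by 3.82 and 4.21 on day 15 and had differed by 0.02 and 0.10 on day 12, whereas IFI6 had the highest day 12 difference of the list and a smaller rise on day 15 than either. The receptor gene IFNAR1 went the other way on day 18, when it fell by 0.62 (SE 0.122, adjusted p = 0.00110, limma). Across all probe sets the term for day 15 minus day 12 was positive past the threshold for 328 (1.37%) and negative for 149 (0.62%), and that for day 18 minus day 12 for 1301 (5.42%) and 1157 (4.82%).

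**Figure D4:**
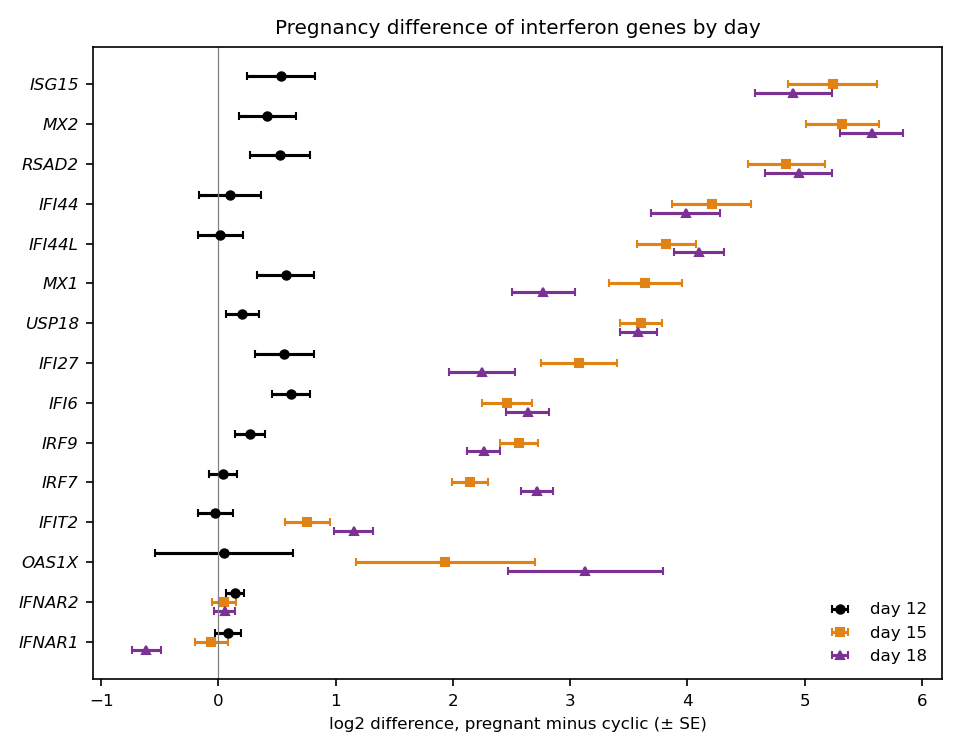
Effect of pregnancy (log2 pregnant minus cyclic, with the standard error from limma) on interferon genes on days 12, 15 and 18. On day 12 the effects lie between -0.03 and 0.62, and on day 15 those of MX2 and ISG15 reach 5.32 and 5.24. Each day's animals and uterine part differ.

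Reading the later responses back on day 12 gave small shifts. Of the 661 probe sets that rose on day 15, 389 (58.9%) were above 0 on day 12, against 52.5% of all probe sets, and 42 (6.35%) were higher at an unadjusted p under 0.05, against 3.53%. Their median on day 12 was 0.02. The 50 largest of those rises had a day 12 median of 0.12, with 43 (86%) above 0, against 52.5% of all probe sets. At an unadjusted p under 0.05, 7 (14%) were higher, against 3.53% of all probe sets, and 0 were lower, against 3.12%. In single animals the median of these 50 relative to the cyclic mean was 0.45, -0.11, 0.08, 0.12 and 0.16 in pregnant animals, against 0.22, -0.07, 0.14, -0.13 and -0.19 in cyclic animals, so the groups overlapped and pregnant animal 1 stood apart. Cyclic animals 4 and 5 were the lowest, and the set was not read without them. The 557 probe sets that fell on day 15 had a day 12 median of 0.00 with 49.9% above 0. For day 18 the median on day 12 was 0.002 for the 2123 raised and 0.002 for the 2439 lowered probe sets. Read the other way, of the 848 probe sets higher on day 12 at an unadjusted p under 0.05, 42 (4.95%) rose on day 15, against 2.75% of all, and 85 (10.0%) rose on day 18, against 8.84% of all.

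Antigen presentation by MHC class I, which interferon raises in many tissues, was read next. Of 20 listed genes 15 were measured, 0 passed, 4 were above 0 and the median was -0.01. B2M, the light chain of class I molecules, differed by 0.01 ± 0.0717, the peptide transporter TAP1 by -0.14 ± 0.128 and the immunoproteasome subunit PSMB8 by -0.10 ± 0.0999. The probe set named BOLA, for a bovine MHC class I gene of a highly polymorphic family, was 13.05, 5.02, 13.03, 5.17 and 12.86 in pregnant animals, against 12.16, 11.26, 13.07, 12.39 and 12.72 in cyclic animals. Pregnant animals 2 and 4 were near the bottom of the scale and all the other animals were high. The resulting difference of -2.49 ± 1.20 (unadjusted p = 0.0497, adjusted p = 0.750, limma) rests on those animals.

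Among 40 measured of 47 listed genes of epithelial transport and histotroph, 0 passed, 3 were higher (2.86% of all genes) and 2 lower (3.92% of all genes) at an unadjusted p under 0.05, and the median was 0.01 with 21 above 0, against 48.6% of all genes. IGFBP1, an insulin-like growth factor binding protein that the ruminant uterus secretes during conceptus elongation, was 9.40, 8.48, 9.10, 8.38 and 7.64 in pregnant animals, against 7.66, 5.53, 8.74, 6.86 and 5.71 in cyclic animals. Cyclic animal 3 exceeded 3 pregnant animals, and the cyclic group was widely spread. The difference was 1.70 ± 0.591 (unadjusted p = 0.00889, adjusted p = 0.616, limma), among the widest of any gene named here and among the least precise. CST6, a secreted inhibitor of cysteine proteases, was 11.91, 11.07, 11.57, 10.92 and 10.21 in pregnant animals, against 11.02, 9.94, 11.17, 9.92 and 9.37 in cyclic animals, a difference of 0.85 ± 0.326 (adjusted p = 0.657, limma). A second CST6 probe set differed by 0.16. Without cyclic animals 4 and 5 the difference was 0.43 for CST6 (unadjusted p = 0.223, limma) and 1.29 for IGFBP1 (unadjusted p = 0.0721, limma). SLC5A1, the sodium-coupled glucose transporter of epithelium, was 9.64, 8.83, 9.73, 9.45 and 8.35 in pregnant animals, against 9.22, 8.57, 9.58, 8.12 and 6.06 in cyclic animals. Its difference of 0.89 ± 0.437 had an unadjusted p of 0.0540 by limma and leaned on cyclic animal 5.

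The order of animals recurred across these epithelial genes. In IGFBP1, CST6 and SLC5A1 cyclic animals 1 and 3 were the highest of the cyclic group, as they were for ISG15 and IFI27. LTF, lactoferrin, an iron-binding protein of uterine secretions, ran lower: it was 8.77, 6.30, 7.58, 7.70 and 7.22 in pregnant animals, against 8.99, 9.93, 8.77, 6.88 and 8.73 in cyclic animals, a difference of -1.15 ± 0.492 (unadjusted p = 0.0296, limma), and the ranges overlapped widely. SERPINA14, the progesterone-induced uterine serpin of histotroph, differed by 0.19 ± 0.353 on day 12, and the effect on day 18 was larger by 3.14 ± 0.530 (adjusted p = 0.000472, limma).

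Receptors and enzymes of steroid, oxytocin and prostaglandin signalling showed no difference past the threshold: of 37 listed genes 28 were measured, 0 passed, 14 were above 0 and the median was 0.01. PGR, the progesterone receptor, was 4.15, 4.22, 4.38, 4.54 and 4.37 in pregnant animals, against 4.72, 4.77, 4.23, 4.52 and 4.57 in cyclic animals. Cyclic animals 3 and 4 lay below the highest pregnant animal, so the ranges overlapped, and the difference was -0.23 ± 0.112 (unadjusted p = 0.0529, limma). ESR1, the oestrogen receptor, differed by 0.02 ± 0.0975 and OXTR, the oxytocin receptor through which luteolytic pulses start, by 0.05 ± 0.186. Values were low for PGR and for OXTR, which averaged 4.10 in pregnant and 4.05 in cyclic animals. The medians of the day 12 arrays were 6.84 to 6.87. Whether values this low reflect detected transcript was not tested. On day 18 ESR1 fell by 0.71 with pregnancy (SE 0.109, adjusted p = 8.79e-05, limma), and the effect on day 18 minus day 12 was -0.72 ± 0.146 (adjusted p = 0.00268, limma). HPGD, which inactivates prostaglandins, differed by -0.26 ± 0.121 on day 12 (unadjusted p = 0.0399, limma), and PTGS2, which makes their precursor, by 0.41.

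Growth factor, chemokine and stress genes also stayed short of the threshold. Of 35 measured of 49 listed growth factor and Wnt genes, 0 passed, 3 were higher (2.86% of all genes) and 2 lower (3.92% of all genes) at an unadjusted p under 0.05, and the median was 0.002. HGF, which stromal cells secrete to act on epithelium, differed by 0.27 ± 0.0806 and its receptor MET by 0.35. HGF values were low, with means of 4.23 in pregnant and 3.96 in cyclic animals, and its detection was not tested. WNT11 differed by -0.35 ± 0.107, and the other lower gene was IHH. Of 39 measured of 43 listed chemokines and cytokines, 0 were past an unadjusted p of 0.05 in either direction, 14 were above 0 and the median was -0.06; IL33, an alarmin of epithelium, differed by -0.59 ± 0.332. Of 24 measured of 29 listed immediate early and heat shock genes, which respond within minutes to handling of tissue, 0 were past an unadjusted p of 0.05, but 21 (87.5%) were above 0, against 48.6% of all genes, and the median was 0.10. EGR1, the most different of them, was 9.28, 9.64, 9.07, 9.28 and 9.57 in pregnant animals, against 9.05, 8.79, 9.92, 8.02 and 8.0 in cyclic animals, with cyclic animal 3 the highest of the 10 and cyclic animals 4 and 5 the lowest. It differed by 0.61 ± 0.321, whereas a second EGR1 probe set differed by 0.05. Without cyclic animals 4 and 5 the list had a median of 0.05, with 18 of 24 above 0, against 52.9% of all genes, and EGR1 differed by 0.11. In that setting 4 of the 24 (16.7%) were higher at an unadjusted p under 0.05, against 3.26% of all genes, and 0 were lower. HSPH1, a heat shock gene, differed by 0.48 there, against 0.25 with all animals.

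**Figure D5:**
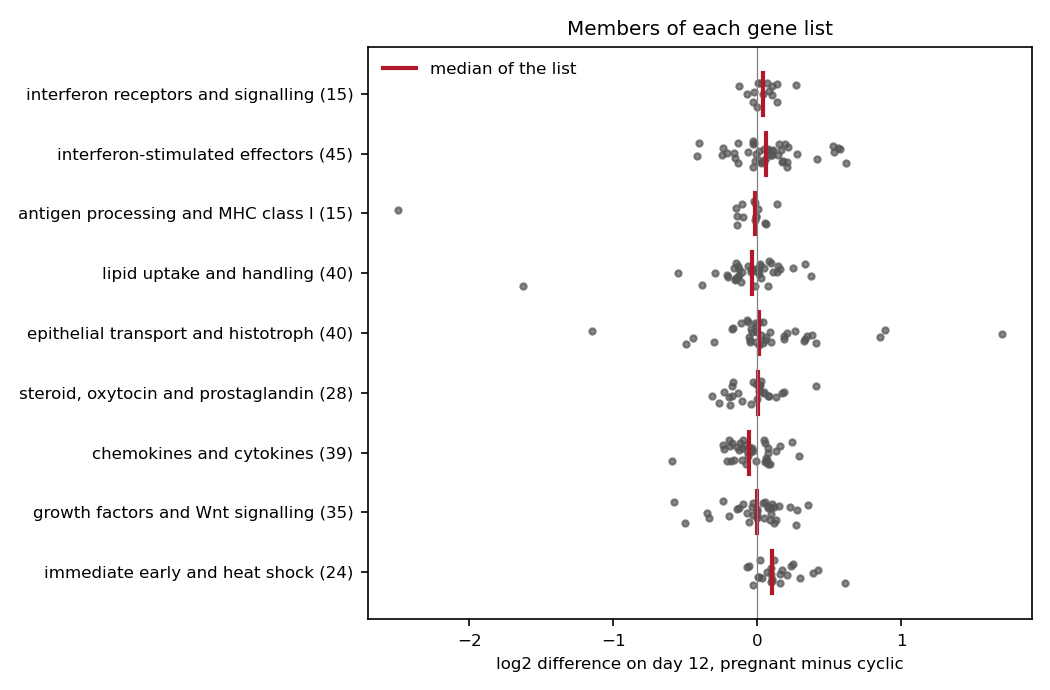
Log2 pregnant minus cyclic on day 12 for the measured members of each gene list (points, horizontal axis) with list medians. Medians lie between -0.06 for chemokines and cytokines and 0.10 for immediate early and heat shock genes; LPL in the lipid list passed the threshold.

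Besides the cyclic arrays that stood apart, array and tissue measures were read from control and marker genes. The 3′ minus 5′ signal of the GAPDH control probe sets, a sign of RNA quality, averaged 0.458 (SD 0.0722) in pregnant and 0.394 (SD 0.140) in cyclic animals (n = 5 each), and arrays correlated with each other at 0.988 to 0.994. For the actin controls the same measure was larger, at 1.94 to 2.29 in pregnant and 2.12 to 2.36 in cyclic animals. For the EF1A controls it was -1.80 to -1.61 in pregnant and -1.92 to -1.59 in cyclic animals. Over the 13 epithelial markers, 7 were above 0 and the median was 0.03, with differences from -0.20 to 0.19. EPCAM, among them, was 12.3 in both groups. Of 3 measured markers of ciliated epithelium 0 were above 0, and the median was -0.14. The mean level of these 3 was 7.15 to 7.83 in pregnant and 7.06 to 8.10 in cyclic animals, highest in cyclic animal 4. Stromal markers had a median of 0.07 with 10 of 12 above 0, and neutrophil markers 0.05 with 9 of 10 above 0. Macrophage and dendritic cell markers had a median of -0.11 with 3 of 11 above 0. Of all genes 48.6% were above 0. C1QC (-0.49 ± 0.192) and FCGR1A (-0.29 ± 0.133) were the 2 of these 11 past an unadjusted p of 0.05, against 3.92% of all genes that were lower at that p. The mean level of the macrophage and dendritic cell markers was 6.95 to 7.23 in pregnant and 7.01 to 7.63 in cyclic animals. Cyclic animal 3 held the highest of these levels, and the next cyclic animal was at 7.27. That of smooth muscle markers was 8.48 to 9.66 in pregnant and 8.60 to 9.61 in cyclic animals. Of 30 listed trophoblast genes 16 were measured, with a median of 0.02 and 9 above 0, and the interferon tau gene IFNT2 was 5.37, 5.48, 5.67, 5.73 and 5.33 in pregnant animals, against 5.26, 5.26, 5.04, 5.67 and 5.36 in cyclic animals, so the cyclic animals, which carried no conceptus, read at an overlapping level. Whether these markers have a part in the differences above was not tested.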

How the data were processed

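The authors deposited log2 expression values per probe set of the Affymetrix Bovine Genome Array, produced by RMA in affy, per the submitters' processing notes, and their versions are not given in the sources used here. Sorted values matched within each slaughter day (largest SD of a sorted value 0.0566 to 0.0751) and not over all 24 slaughter arrays (0.366), so each day was treated as normalised apart, an inference from the values. Of 24128 probe sets 112 controls were left out. The array annotation named 13292 probe sets by 1 gene symbol, 86 by several and 10638 by none, and 13263 matched RefSeq by gene identifier. For 2913 of 9155 genes with several probe sets, the one with the highest mean over all arrays was used. A linear model with 1 mean per group was fitted with limma 3.58.1 in R 4.3.3 to 24 arrays and 24016 probe sets (18 residual degrees of freedom), without a filter on low values; tests were two-sided with Benjamini-Hochberg adjustment. The procedure was tested on simulated data. Each array is a separate animal, and precision is limited by how many arrays there are.

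The members, gene lists and naming rule were chosen with earlier results of these data known. Named genes are those past the threshold, the 12 per direction with the smallest unadjusted p among genes whose groups did not overlap (symbols starting with LOC left out), LPL with a fixed set of interferon genes, steroid receptors and SERPINA14, the 3 members of each pathway list with the smallest unadjusted p, and the 5 genes most correlated with LPL. Other list members, and FUT1, were named after their values were seen. Alternatives were other arrays in the fit, the replicate number as a block, quantile normalisation, array weights, a trended and robust prior, a filter on low values, the GAPDH signal as a covariate, leaving out each animal, the mean over a gene's probe sets and a stricter threshold for the later days; leaving out cyclic animals 4 and 5 was added after seeing the data. A planned search of promoter sequences was not run, and promoters were not analysed here.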

Additional observations from a re-analysis of the deposited data

Results flagged for a closer look

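Several values stood far from the rest of their group of 5, by a gap larger than Dixon's 95% critical share of the group's range. This held for 7 of 148 groups examined, and chance gives about 1 in 20. Among pregnant animals they were MKLN1 in animal 5 (7.40), HGF in animal 2 (3.93), ST14 in animal 3 (10.18) and USP18 in animal 1 (7.83). Among cyclic animals they were TIMELESS in animal 5 (6.57), and IFNAR2 (8.01) and CANX (11.48) in animal 3.

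The effect of pregnancy differed between day 15 and day 12 by limma's interaction term for 13 of the named genes, given as the day 15 effect minus the day 12 effect. For interferon genes the differences were 4.90 (MX2), 4.71 (ISG15), 4.32 (RSAD2), 4.11 (IFI44), 3.80 (IFI44L), 3.40 (USP18), 3.07 (MX1), 2.51 (IFI27), 2.29 (IRF9), 2.20 (IFI16), 2.11 (IRF7) and 1.84 (IFI6). FAHD1, a mitochondrial hydrolase, differed by 0.38 and was the only one of the 24 genes without overlap on day 12 to pass here.

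For day 18 minus day 12 the interferon genes differed by 5.15 (MX2), 4.43 (RSAD2), 4.37 (ISG15), 4.08 (IFI44L), 3.89 (IFI44), 3.38 (USP18), 3.08 (OAS1X), 2.68 (IRF7), 2.52 (IFI16), 2.20 (MX1), 2.02 (IFI6), 1.99 (IRF9), 1.69 (IFI27) and 1.18 (IFIT2). The receptor gene IFNAR1 differed by -0.70 and ESR1 by -0.72. Of the genes without overlap on day 12, LPL differed by 1.67, TCAF2 by 0.88, ANKIB1 by 0.50, MKLN1 by 0.39, IMPDH2, which makes guanine nucleotides, by -0.30, ZRANB1 by -0.45 and ST14 by -0.58. SERPINA14 differed by 3.14, SCD by 0.77 and HSD17B10, a mitochondrial dehydrogenase, by 0.46.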

How the results depend on the processing

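The count of 1 probe set became 0 on the 10 day 12 arrays alone or with a replicate block on them, 3 after quantile normalisation (FUT1 among them) and 4 with the GAPDH signal as a covariate (FAM162A and TRPM3 among them); leaving out 1 animal gave 0 to 3, and leaving out cyclic animals 4 and 5 together, chosen after seeing the data, gave 7. LPL kept its direction in each alternative and passed in 11 of 18, with adjusted p from 0.00179 to 0.208 (limma). Its difference of -1.62 had an adjusted p of 0.208 on the day 12 arrays alone and 0.186 with the replicate block; without 1 animal it ran from -1.83 to -1.42 and passed in 5 of 10, missing without cyclic animal 3 or pregnant animal 1, 2, 4 or 5 (adjusted p 0.106, 0.0759, 0.133, 0.0543 and 0.112). Same-numbered animals correlated in their deviations at 0.0296 to 0.204, not above 0.1 for every pair, and the numbers were not taken as pairs. The same-numbered cyclic animal was the closest match for pregnant animals 2 and 5. For pregnant animals 1, 3 and 4 another cyclic animal matched more closely, at 0.0316, 0.110 and 0.0778 against 0.0296, 0.0594 and 0.0709. These values do not settle whether the numbers are pairs, and the fit with a replicate block is given above.

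The median of receptor and signalling genes was 0.00933 by the mean over probe sets 0.07 without cyclic animals 4 and 5, and 0.008 to 0.0625 without 1 animal; without 1 animal that of lipid genes was -0.0748 to -0.006 and that of steroid, oxytocin and prostaglandin genes -0.0338 to 0.0138, and -0.038 without cyclic animals 4 and 5. The cause was not tested. Leaving out 1 animal turned the sign of 7 genes near 0: SERPINA14 (-0.064 to 0.384), IFI44 (-0.047 to 0.228), OXTR (-0.087 to 0.103), IFIT2 (-0.0645 to 0.0465), ESR1 (-0.0195 to 0.0655), OAS1X (-0.419 to 0.322) and IFI44L (-0.097 to 0.111). Without cyclic animals 4 and 5, IFI44 was -0.0913, OXTR -0.0653 and IFI44L -0.042. OAS1X's change from day 12 to day 18 missed without cyclic animal 3 (2.81, adjusted p = 0.0518, limma).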

Other observations

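A pair of probe sets without a gene symbol were close to LPL in p-value. The lower of them averaged 3.07 in pregnant and 3.93 in cyclic animals, a difference of -0.86 ± 0.147 (adjusted p = 0.0848, limma). The higher one averaged 4.89 in pregnant and 4.50 in cyclic animals, without overlap, a difference of 0.38 ± 0.0694 (adjusted p = 0.0959, limma).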
